A study of Oryctolagus cuniculus with 10 samples.

Results

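The transcription factors that establish and maintain the hepatocyte programme were examined in rabbit liver after a diet with squalene, the triterpene from which sterols are made. The group comprised 8 genes chosen by name, *HNF4A*, *FOXA1*, *FOXA2*, *FOXA3*, *CEBPA*, *CEBPB*, *ONECUT1* and *PROX1*. All 8 were listed under their symbol among the 19123 genes of the deposited expression table, each in a single row. RNA came from livers of male wild-type New Zealand white rabbits starved before sampling, where 5 animals had eaten chow mixed with 1% sunflower oil (control) and 5 the same mixture with 0.5% squalene added (squalene), in both cases for 4 weeks. Both diets thus contained the sunflower oil, and whole liver was sequenced, so that fewer hepatocytes and less RNA per hepatocyte cannot be told apart in any value below.

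Hepatocyte identity rests on a small network of factors that bind each other's promoters and the same liver enhancers. *HNF4A* encodes a nuclear receptor at the centre of this network and is required for the expression of apolipoproteins, clotting factors and bile acid enzymes. The FOXA proteins open liver chromatin early in development, the C/EBP proteins drive metabolic and acute phase genes, *ONECUT1* (hepatocyte nuclear factor 6) acts in both hepatocytes and bile duct cells, and *PROX1* encodes a homeobox protein of hepatoblasts that can restrain the activity of HNF4A.

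The table holds 1 level per diet, made by the authors from 5 libraries, and no value per rabbit was available for these genes. No mean with its error, no test and no replicate check could therefore be given, and a gene is described below only by the ratio of its 2 levels and by how common such a ratio was among all genes. Levels of 1 or more had lost their decimal mark in the deposited sheet, and with it their power of 10, while levels under 1 had kept it. All 8 factors had a level of 1 or more on both diets, as had 83.3% of all genes. Their digits are given here on a power of 10 that is common to both diets of a gene and is not known, so they can be compared between the diets and not between genes. The power that put the ratio nearest to 1 was taken, which holds for any true difference below 3.16-fold. A gene with a larger true difference is then given a wrong ratio, as a rule in the wrong direction, and which genes these are cannot be seen from the levels.

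*HNF4A* had the largest difference of the 8. Its level (gene ID 100345457, transcript of 4033 bases) read 10.6 for control and 6.71 for squalene. This made the squalene level 0.631 of the control level, a 1.58-fold lower value or a log2 ratio of -0.66. Among all genes, 2.01% had a ratio as low or lower, and 5.12% were as far from equal levels in either direction. *HNF4A* was the only factor beyond 1.5-fold (0.58 on the log2 scale). Of all genes, 2.99% were beyond 1.5-fold lower and 4.7% beyond 1.5-fold higher on the squalene diet, together 7.69%. With 1 of 8 members past this fold, the group stood near that background, where fewer than 1 of 8 would be past it, (12.5% of the members), and nothing particular to the group can be read from the count.

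The other 7 factors lay within 1.5-fold, at log2 ratios from -0.33 to 0.34. The direction was higher on the squalene diet in 5 of the 8 and lower in 3, or 4 and 4 once the ratios were centred on the median of all genes, which turned *FOXA3* from 0.01 to -0.01. Of all genes, before centring, 10085 were higher on the squalene diet and 9038 lower, so that 52.7% were higher. The median log2 ratio of the 8 was 0.03, beside 0.02 for all genes. The interquartile range of all genes ran from -0.18 to 0.22 and held *CEBPA*, *CEBPB*, *FOXA2* and *FOXA3*. *FOXA1* lay just below this range.

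**Figure D1:**
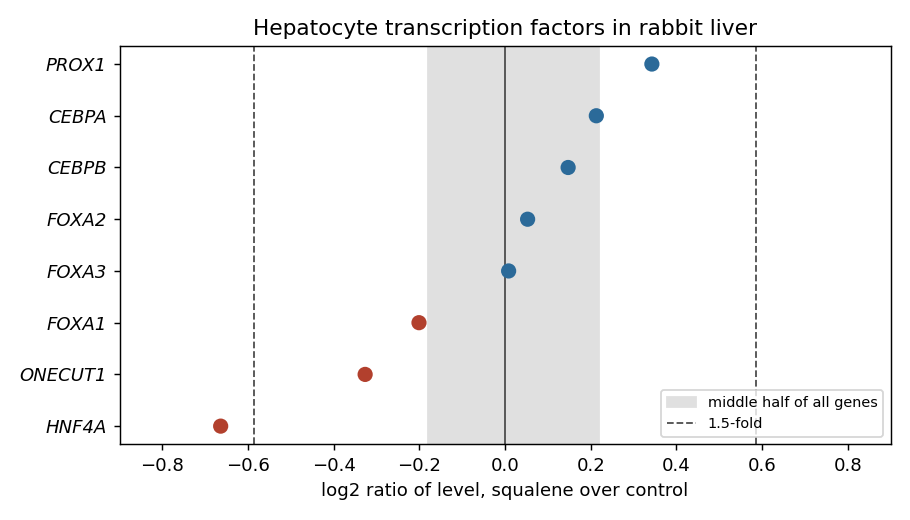
Log2 ratio of the deposited level on the squalene diet over that on the control diet (x axis) for each of the 8 factors (y axis), 1 point per gene without an error bar because the table holds 1 level per diet. Red points are lower and blue points higher on the squalene diet, the grey band spans the interquartile range of all 19123 genes (-0.18 to 0.22) and dashed lines mark 1.5-fold. Only *HNF4A*, at -0.66, lies outside the dashed lines.

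The FOXA genes encode forkhead pioneer factors that can bind closed chromatin. *FOXA1* read 3.88 for control and 3.38 for squalene, a log2 ratio of -0.20. *FOXA2* read 6.71 and 6.96, a log2 ratio of 0.05. *FOXA3* read 9.19 and 9.24, a log2 ratio of 0.01. The 3 paralogs thus differed little between the diets, and 97.7% of all genes had levels at least as far apart as those of *FOXA3*. 

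The identity of the *FOXA3* and *FOXA1* rows is uncertain. The deposited table gives *FOXA3* the gene ID 100348288, described there as hepatocyte nuclear factor 3-gamma, and *FOXA1* the gene ID 108178308, described as a partial transcript of 2042 bases. In the RefSeq annotation of assembly mOryCun1.1, 100348288 is named *FOXA1*, and 108178308 was not found. The table's own symbol is used here throughout. In that RefSeq annotation the other 6 factors had the same symbol for the same gene ID. Only 5 named genes of the whole table carry an ID that RefSeq gives to the symbol of another listed gene.

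The C/EBP proteins are leucine zipper factors. *CEBPA*, which drives metabolic genes of the resting hepatocyte, read 2.02 for control and 2.34 for squalene, a log2 ratio of 0.21. *CEBPB*, which is induced in the acute phase response and in regeneration, read 2.54 and 2.81, a log2 ratio of 0.15. Both levels were slightly higher on the squalene diet, by 1.16-fold and 1.11-fold, and ratios as high were listed for 25.7% and 32.4% of all genes.

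The homeobox factors had the largest ratios after *HNF4A*, in opposite directions. *ONECUT1* (gene ID 100353620) read 1.61 for control and 1.28 for squalene, a 1.25-fold lower level and a log2 ratio of -0.33. As low or lower were 12.5% of all genes. *PROX1* (gene ID 100357251) read 2.86 and 3.63, a 1.27-fold higher level and a log2 ratio of 0.34, and 14.9% of all genes were as high or higher. In order of the log2 ratio from the lowest, the factors ran *HNF4A*, *ONECUT1*, *FOXA1*, *FOXA3*, *FOXA2*, *CEBPB*, *CEBPA* and *PROX1*. Whether neighbours in this order differ beyond the spread between rabbits was not tested, for lack of a value per rabbit.

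**Figure D2:**
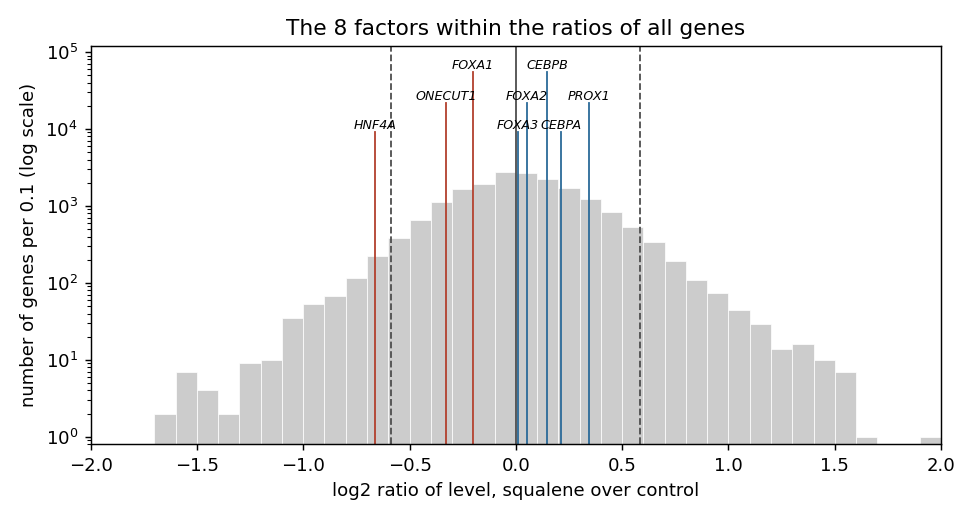
Number of genes (y axis, log scale) in bins of 0.1 of the log2 ratio of levels, squalene over control (x axis), for all 19123 genes, with a vertical line at each of the 8 factors, red if lower and blue if higher on the squalene diet. Dashed lines mark 1.5-fold. *HNF4A* lies where 2.01% of genes are as low or lower, and the other factors lie within 1.5-fold. *ONECUT1* lies where 12.5% of genes are as low or lower, and *PROX1* where 14.9% are as high or higher.

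The relatives of each factor were then listed. Of the 25 forkhead genes, 13 had a lower level with squalene and 12 a higher one. The lower count was 12 to 15 over the other centrings of the ratios. Beyond 1.5-fold were 2, or 8%, *FOXF2* at a log2 ratio of -0.65 and *FOXD2* at 0.71, beside 7.69% of all genes. The FOXA genes lay well inside the range of this family. The 5 C/EBP genes comprised *CEBPD* at 0.23, *CEBPG* at 0.15 and *CEBPE* at -0.20 beside the 2 members, and *CEBPE* had a level under 1 on both diets. All 4 cut homeobox genes were lower on the squalene diet, namely *CUX1* at -0.51, *ONECUT1* at -0.33, and *CUX2* and *ONECUT2* at -0.24 each. None of these 4 was beyond 1.5-fold, and they stayed lower under each centring of the ratios that was tried. Before centring, 9038 of all 19123 genes were lower, and *ONECUT3* was not found. *PROX2*, the paralog of *PROX1*, had a log2 ratio of 0.08, with a level under 1 on both diets.

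*HNF4A* carries the table's annotation for steroid hormone receptor activity, the term that gathers most nuclear receptors. Among the 36 genes with this annotation, the level was lower in 23 and higher in 13, with a median log2 ratio of -0.15. The level was higher in 52.7% of all genes. Beyond 1.5-fold were 3 of them, *HNF4A* included, or 8.33%, and all 3 were lower. Of all genes, 2.99% were beyond 1.5-fold lower and 7.69% beyond it in either direction. *HNF4A* was the second lowest of them. The orphan receptor *NR4A1*, an immediate early gene, was lower still, its squalene level being 0.5 of the control level, and *PPARD*, a fatty acid sensor, was at -0.65. Its closest paralog *HNF4G* was at -0.12. These groups were chosen by symbol or annotation after the values of the 8 factors had been seen, and no test was made of them.

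**Figure D3:**
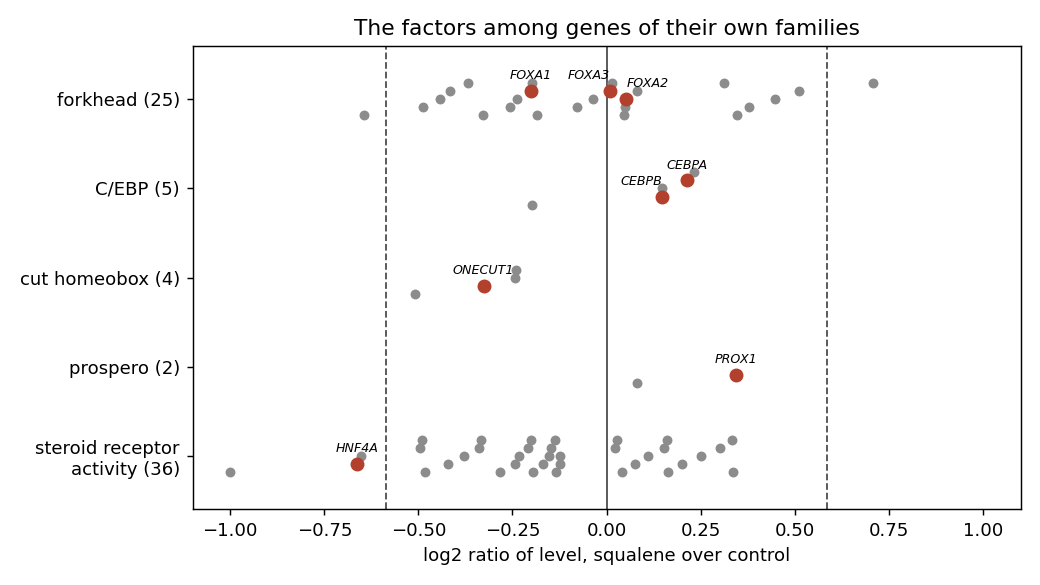
Log2 ratio of levels, squalene over control (x axis), of the genes of each family (y axis, number of genes in parentheses), with the 8 factors as large red labelled points and their relatives as small grey points. Dashed lines mark 1.5-fold, and the vertical position within a row has no meaning. All 4 cut homeobox genes lie below 0, as do 9038 of all 19123 genes. *FOXA1*, *FOXA2* and *FOXA3* lie inside the range of the 25 forkhead genes.

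Partner factors of the network and related liver regulators were taken from a list of 28 genes, of which 24 were found. They were higher in 12 and lower in 12, with a median log2 ratio of -0.02. The only one beyond 1.5-fold was *PPARGC1A* at -0.67, which encodes the fasting-induced coactivator of HNF4A in gluconeogenesis. Beyond 1.5-fold in either direction were 7.69% of all genes. *TCF7L2*, a factor of the Wnt pathway, was at -0.31 and *NR5A2*, a receptor that acts on bile acid enzymes, at -0.17. Higher levels on the squalene diet were listed for *NR0B2*, the repressor known as small heterodimer partner, at 0.25, for *CEBPD* and *DDIT3*, the latter a C/EBP relative induced by stress, at 0.23 each, and for *NR1H4*, the bile acid receptor, at 0.20.

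Genes that depend on these factors were described from a list of 36 hepatocyte target genes, of which 34 were found, all with a level of 1 or more on both diets. The hepatocyte markers among them, *ALB*, *TTR* and *APOA1*, were thus all present, though the lost powers of 10 keep their abundance from being read. The squalene level was the higher one in 21 and the lower one in 13, with a median log2 ratio of 0.14. Of all genes, 52.7% were higher, with a median of 0.02. Beyond 1.5-fold were 3 of the 34, in both directions, beside 7.69% of all genes. *CYP7A1*, the rate-limiting enzyme of bile acid synthesis, was the lowest at -1.42, which is near the 3.16-fold limit of the restored ratios, and the next nearest power of 10 would put it at 1.90. *APOA2*, an apolipoprotein of high-density lipoprotein, was the highest at 0.89, followed by *PCK1*, the gluconeogenic phosphoenolpyruvate carboxykinase, at 0.64. *G6PC*, the catalytic subunit of glucose-6-phosphatase, had the second lowest ratio, -0.41. 
The lower level of *HNF4A* was listed together with targets on both sides. *ALB* (albumin), *TTR* (transthyretin) and *APOA1*, whose genes are used as markers of mature hepatocytes, were at 0.39, 0.43 and 0.22. Of the urea cycle genes, *ARG1* and *CPS1* were at -0.40 and -0.39 and *OTC* at 0.22.

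**Figure D4:**
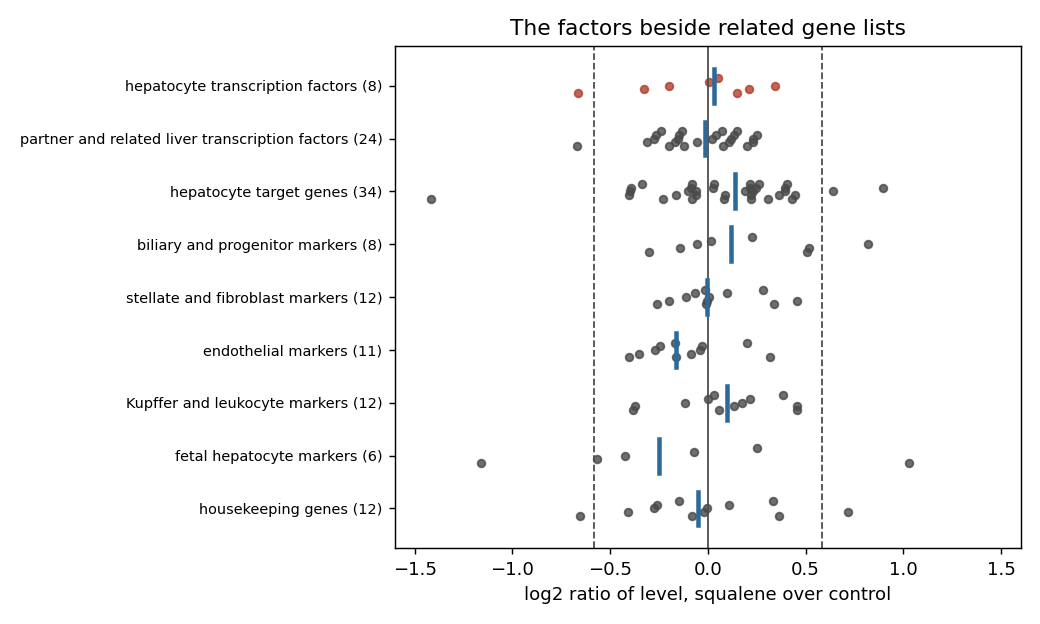
Log2 ratio of levels, squalene over control (x axis), of the 8 factors (red) and of the genes found from each list (grey, number in parentheses on the y axis), 1 point per gene, with a blue bar at the median of each list and dashed lines at 1.5-fold. The factors have a median of 0.03, the 24 partner factors -0.02 and the 34 target genes 0.14, and of the 12 housekeeping genes *ACTB* at -0.65 and *B2M* at 0.72 lie beyond 1.5-fold.

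Genes used as references give the scale of these differences. Of 12 housekeeping genes, 2 were beyond 1.5-fold, *ACTB* (beta-actin) at -0.65 and *B2M* at 0.72, beside 7.69% of all genes. A gene commonly taken as stable was thus listed with a ratio close to that of *HNF4A*. After *ACTB* the lowest was *TFRC* at -0.41, and after *B2M* the highest was *RPLP0* at 0.36. *PPIB* and *GAPDH*, to which the study's RT-qPCR was normalised, were at -0.08 and -0.02.

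Markers of the other liver cells are given because *ONECUT1* is also expressed in bile duct cells and *PROX1* in lymphatic endothelium. All markers found had a level of 1 or more on both diets. The 8 biliary and progenitor markers had a median log2 ratio of 0.12, with *SOX4* beyond 1.5-fold at 0.82, *EPCAM* at 0.52, *SOX9* at -0.14 and *KRT7* at -0.30. The 11 endothelial markers had a median of -0.16 and were lower in 9, or in 7 when centred on *PPIB* and *GAPDH*. *STAB2* was at -0.40, *PECAM1* at -0.35, *PLVAP* at 0.20 and *CLEC4G* at 0.32, and *LYVE1*, shared by lymphatic and sinusoidal endothelium, at -0.16. The only 2 higher, *PLVAP* and *CLEC4G*, had transcripts of 1867 and 1868 bases, and the others of 2749 to 8799 bases. Of the longest transcripts among the 8 factors, *ONECUT1* (8452 bases) and *HNF4A* (4033 bases) were lower and *PROX1* (7801 bases) higher. The shortest transcripts among the target genes were higher, *APOC3* (615 bases) at 0.08, *TTR* (617 bases) at 0.43 and *APOA2* (633 bases) at 0.89. The longest were lower, *APOB* (14128 bases) at -0.06, *CPS1* (5592 bases) at -0.39 and *TAT* (3752 bases) at -0.08. Whether the ratios follow transcript length was not tested. 
The 12 stellate and fibroblast markers ran from -0.26 for *COL1A1* and -0.20 for *RELN* to 0.34 for *DCN* and 0.46 for *LUM*, and the 12 Kupffer and leukocyte markers from -0.38 for *NKG7* to 0.46 for *CD5L* and *C1QC*. No gene of the endothelial, stellate and fibroblast, or Kupffer and leukocyte lists was beyond 1.5-fold, where 7.69% of all genes were. The part of cell composition in the ratios of the 8 factors was not tested.

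None of the 46 splicing events in the deposited tables, which hold only events selected by the authors, was in 1 of the 8 genes. Single nucleotide sites in the 8 genes were not analysed here, because the site tables give positions on the older genome build and no annotation of that build was used. Sequencing depth was even, from 45260000 to 46120000 clean reads over the 10 libraries.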

How the data were processed

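Poly-A RNA of 10 rabbit livers was sequenced, 5 per diet by the sample titles. One legend in the paper speaks of partial pooling, of which the labels say nothing. According to the paper's methods the authors filtered reads, mapped them with Bowtie to reference and predicted transcripts, and computed gene levels with RSEM. The versions and the unit of the deposited levels are not given in the sources used here, nor is how 5 libraries were combined into 1 level.

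Of the deposited table, the 1 level per diet, the length, the symbol and the annotation were used. Its columns of the authors' own comparison, a fold change, a p-value, an adjusted p-value and a direction mark, were not used. The planned test across rabbits could not be made without a value per rabbit. Levels under 1 were read as they stand, and other levels as digits without a power of 10. The power giving the ratio nearest to 1 was chosen. For 242 genes with 1 level under 1 the direction is known, and the choice went against it in 1, which was corrected. In 2953 genes under 1 on both diets, where no mark was lost, no log2 ratio exceeded 0.86. Their ratios had an SD of 0.20, against 0.35 in the 15928 genes at 1 or more on both. Some genes under 1 had the same ratio to every digit, such as *FOXI2* and *PROX2* at 0.08. The smaller SD therefore does not show how precisely low levels were measured. At 1 or more on both diets, 17 genes lay beyond 1.5 on the log2 scale after the power was chosen. Restoring was tested on 10000 simulated ratios. Within the 3.16-fold limit 100% were recovered, as the method implies, and beyond it 32%. Where both levels are 1 or more, as for all the factors, the method cannot recover a ratio beyond the limit. The 32% therefore does not apply to such genes.

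Missing symbols were looked up by gene ID in RefSeq (mOryCun1.1), and 16248 IDs were found there. Not analysed here were 12 list genes, *SERPINA1* and *CYP2E1* among them. Named were the 8 factors, the 2 highest and 2 lowest of each list, 6 preset partner factors, *PPIB* and *GAPDH*, of which a few are not reported here. Any further gene was picked with its values in view. The members and lists were chosen with earlier results of these data known. Alternatives were other centrings, folds and powers of 10. Analyses used Python 3.11.15, numpy 2.4.6 and pandas 2.3.3, and matplotlib 3.10.9 drew the plots. No sequence of the 8 genes was at hand, so none is shown.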

Additional observations from a re-analysis of the deposited data

How the results depend on the processing

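No paired analysis was possible because the expression table holds 1 level per diet, and for the same reason no rabbit could be left out and no pseudocount or low-value filter was tried. Centred on the median of all genes, on *PPIB* and *GAPDH*, or on the housekeeping median, which shifted ratios by 0.02, -0.05 and -0.05, *HNF4A* had log2 ratios of -0.68, -0.61 and -0.61 and was the 1 factor beyond 1.5-fold each time. At 1.2-fold 3 factors and 37.8% of all genes were past the threshold, and at 2-fold 0 factors and 0.999% of genes. Without predicted genes 7.56% of genes were beyond 1.5-fold, and 7.55% after centring on the median of all genes, a setting added after seeing the data. The list counts beyond 1.5-fold were equal under that centring, and no list gene had several rows.

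All ratios rest on the chosen power of 10. With the next nearest power, all 8 factors would be beyond 1.5-fold in the opposite direction by construction, *HNF4A* at 2.66, *ONECUT1* at 3.00, *FOXA1* at 3.12, *PROX1* at -2.98, *CEBPA* at -3.11, *CEBPB* at -3.17, *FOXA2* at -3.27 and *FOXA3* at -3.31. Read depth per gene is unknown, so no interval can be given for any ratio. The planned counts of variant sites and of splicing inclusion in the 8 genes were not run, for want of positions and of events.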

Other observations

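Markers of the fetal hepatocyte, a list not described in the sections above, were listed on both sides. Of 7 genes listed for this, 6 were found, with a median log2 ratio of -0.25. *GPC3*, a glypican of fetal and malignant liver, was at 1.03, and *IGF2BP1*, an RNA-binding protein of fetal tissue, at -1.16. *AFP* (alpha-fetoprotein) was at 0.25, *DLK1* at -0.57 and *IGF2BP3* at -0.07. *AFM* (afamin), at -0.43, was counted in the list and its median, although it encodes a plasma protein of the adult liver. These are values of 1 level per diet without a replicate check.

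Among 276 genes that the table annotates with transcription factor activity on DNA, 10 were beyond 1.5-fold lower and 7 higher on the squalene diet, 6.16% in all, close to the 7.69% of all genes. The term is carried by 3 of the 8 factors, *FOXA2*, *FOXA3* and *CEBPA*. The lowest of these genes were *ZBTB16* at -1.17, a zinc finger repressor, and *POU5F2* at -0.89. *SREBF2*, which drives the cholesterol synthesis genes, was at -0.75, and *KLF4* at -0.76. Among 54 genes annotated as activators of RNA polymerase II, *HNF4A* was the third lowest, and 5 of them, *HNF4A* included, were beyond 1.5-fold, 4 lower and 1 higher (*HLF* at 0.60). These are 9.26%, beside 7.69% of all genes in either direction. The 4 lower ones are 7.41%, beside 2.99% of all genes. These groups were chosen after the values had been seen.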
